A study of Homo sapiens with 6 samples.

Results

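The interleukin-6 (IL6) cytokine family was examined through 9 genes taken by symbol from a table of 19009: the ligands IL6, IL11 and LIF, the receptor subunits IL6R, LIFR, OSMR and IL6ST, the transcription factor STAT3 and the feedback inhibitor SOCS3. All 9 were found and all 9 were tested. They were read in RCC10, an established human line of clear cell renal carcinoma, a tumour type in which loss of VHL is common. VHL is the part of a ubiquitin ligase that recognises the HIF alpha subunits and sends them for degradation. The 6 poly(A) RNA libraries form 3 groups of 2: parental cells labelled as control, HIF-1alpha and HIF-2alpha double-knockout cells made with lentiviral guide RNA and puromycin, and VHL-restored cells made with a lentivirus carrying VHL. The culture medium was DMEM plus fetal bovine serum for each group. None of the groups is labelled as carrying a non-targeting guide or an empty vector, so effects of lentivirus or selection and effects of the engineered genes cannot be told apart. The sources used here do not say whether the knockout cells are a clone or a pool, or whether replicates come from separate cultures. The p-values therefore measure the spread between these libraries only, which may be technical.

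IL6 family cytokines signal through receptor complexes that share the subunit gp130, encoded by IL6ST. IL6 and IL11 bring gp130 together through a ligand-specific receptor, whereas LIF pairs gp130 with LIFR, and oncostatin M can pair it with OSMR. The complexes activate JAK kinases, which phosphorylate STAT3, and STAT3 induces SOCS3, which shuts the receptor down. IL6 itself is an inflammatory cytokine gene driven by NF-kB, C/EBP and AP-1 factors and is made by many carcinomas, including renal carcinoma.

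Depth and the targeted genes were checked across the 6 libraries. Total counts ran from 22248126 to 29929116 per library, and levels below are CPM, counts normalised to the library size after scaling by edgeR's TMM factors, given as mean ± SD of 2 libraries. EPAS1, the gene of HIF-2alpha, was at 352 and 349 CPM in the parental pair, 44.4 and 48.0 in the double-knockout pair and 363 and 369 in the VHL-restored pair. HIF1A was at 69.5 and 72.9, 29.6 and 31.6, and 304 and 286 CPM in the same order, and VHL at 38.8 and 39.5, 43.3 and 47.3, and 652 and 723. EPAS1 and HIF1A transcripts thus persisted in double-knockout cells, and transcript level does not show whether protein was lost. Of 8 markers listed for the line, PAX8, a factor of the renal lineage, the keratin genes KRT8 and KRT18 and VIM, the vimentin gene, were at no less than 297 CPM in any library, though VIM fell in both engineered lines, by 0.57 ± 0.05 and 1.17 ± 0.05 on the log2 scale (adjusted p = 4.39e-12 and 1.28e-19, edgeR). KRT18 went from a parental mean of 348 CPM to 842 in double-knockout cells and 955 with VHL restored. KRT8 went from 734 to 839 and 1454 CPM in the same order, and PAX8 from 301 to 363 and 407. PAX2, another renal lineage factor, was at 1.48 and 1.85 CPM in the parental pair and 0.858 and 1.36 in the VHL-restored pair, but at 15.9 and 14.8 in the double-knockout pair, 9.31-fold above parental cells (adjusted p = 5.38e-18, edgeR). PAX2 was thus high in the libraries in which IL6 was high. LHX1, a factor of kidney development, was between 5.58 and 13.4 CPM, and CDH6, a cadherin of the proximal tubule, fell 5.91-fold in double-knockout cells (adjusted p = 9.01e-21, edgeR) and 2.32-fold with VHL restored (adjusted p = 8.1e-14, edgeR). The part of these changes in the results below was not tested. CA9, a carbonic anhydrase usual in this tumour type, had 1 count in 1 parental library and none elsewhere. Of 7 leukocyte markers PTPRC and CD3E had no count in any library, and the summed level of the list was 1.01 to 3.83 CPM. The 3 endothelial markers read summed to 0.239 to 1.86 CPM, with PECAM1 at no count. The 4 fibroblast markers read summed to 17.4 CPM in each parental library, 3.69 and 3.76 in the double-knockout pair and 22.8 and 24.4 in the VHL-restored pair, nearly all of it PDGFRB and COL1A1, while DCN had no count in either engineered line.

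In double-knockout against parental cells 5 members rose, 2 fell and 2 did not pass an adjusted p of 0.05. Over all 18273 genes tested the call rate in that comparison was 54.1%, with 26.6% higher and 27.5% lower, and it was 71.7% among genes with a mean of at least 1 CPM (71.8% and 74.1% in the next 2 comparisons). In VHL-restored against parental cells 3 rose, 2 fell and 4 did not pass, beside 54.2% of all genes called, 26.5% higher and 27.7% lower. Between the engineered lines 6 were higher and 2 lower in double-knockout cells and 1 did not pass, beside 56.0% of all genes, 28.0% in each direction. The family was chosen by symbol, but selected on a measured value of these libraries, the higher IL6 counts of double-knockout cells. The values of its 9 genes are therefore given as a description of these libraries, without p-values, and nothing is read from the counts. The 2 comparisons with parental cells share the parental libraries.

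**Figure D1:**
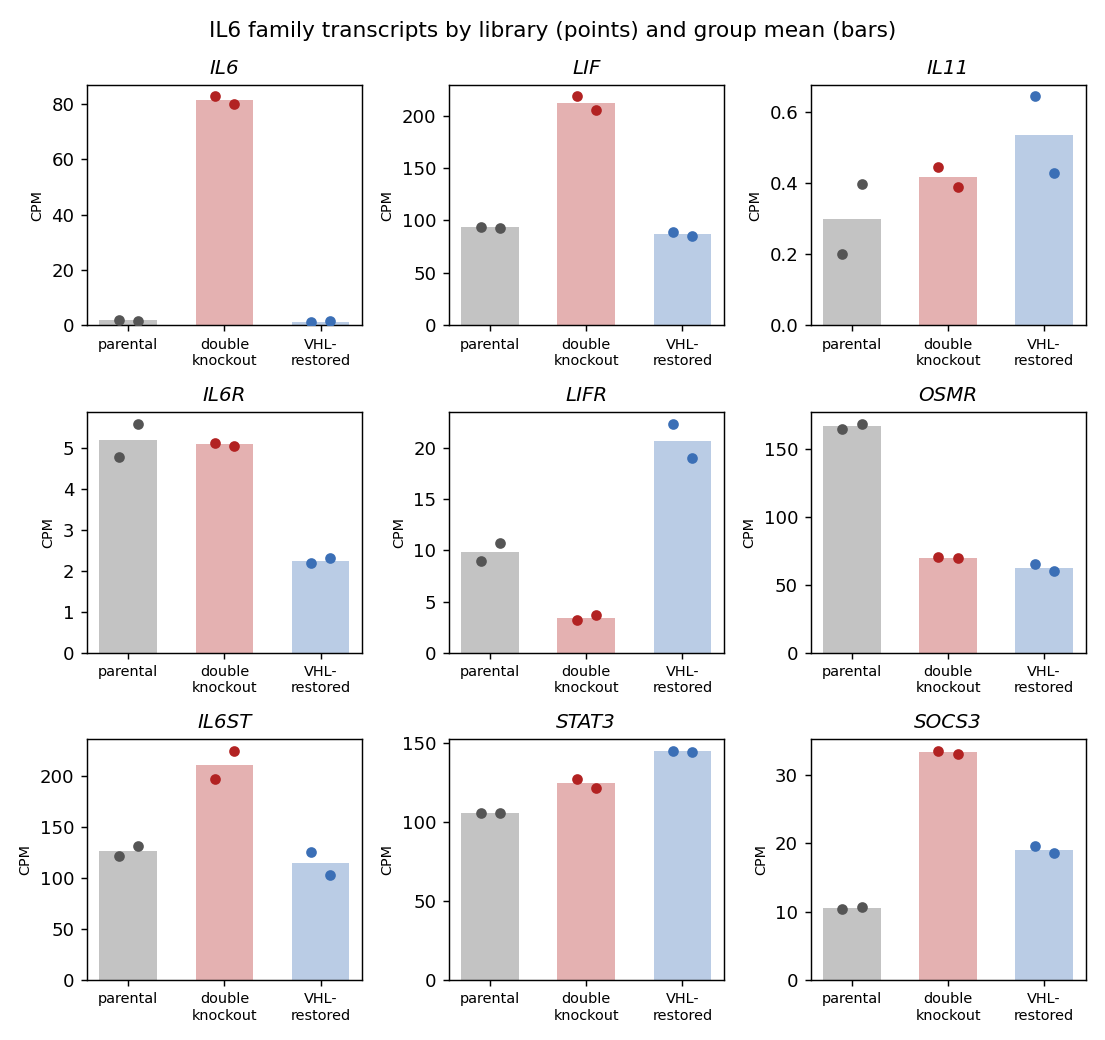
CPM of the 9 family members, a panel each with its own linear axis from 0, in parental, double-knockout and VHL-restored cells. Points are the 2 libraries of a group and bars their mean. IL6 stands at 80.0 and 82.7 CPM in double-knockout cells and at 1.99 CPM or less in the other 4 libraries.

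IL6 was the member with the largest difference. It was at 1.99 and 1.59 CPM in the parental pair, 82.7 and 80.0 in the double-knockout pair and 1.11 and 1.61 in the VHL-restored pair, which rested on 59, 36, 2420, 2059, 31 and 45 counts. Both double-knockout libraries were far above the other 4, and the parental and VHL-restored libraries overlapped. The mean went from 1.79 ± 0.283 to 81.4 ± 1.96 CPM, a 44.8-fold rise and a log2 fold change of 5.49 ± 0.16 (SE). Against VHL-restored cells the fold was 59.7. In VHL-restored against parental cells the log2 fold change was -0.41 ± 0.23, with a 95% interval of -0.87 to 0.04. This difference did not pass, but it passed at -0.71 without VHL-restored replicate 2. In bulk RNA, a rise in every cell and a larger share of cells making IL6 cannot be told apart. The most abundant leukocyte marker, ITGAM, was also higher in double-knockout cells, at 3.04 and 2.06 against 0.809 and 0.441 CPM in parental cells (1.98 ± 0.32 on the log2 scale, adjusted p = 7.27e-07, edgeR), and its part in the IL6 result was not tested. PTPRC and CD3E, which define leukocytes and T cells, had no count.

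The sequence before the IL6 start is shown because this gene differed most, beside that of IL6ST, which was also highest in double-knockout cells, and of OSMR, which was lower in both engineered lines. Each run is the 250 bases before the RefSeq start, 5′ to 3′ on the strand of the gene, in build GRCh38.p14. IL6 lies on the plus strand at chr7:22726950-22727199, IL6ST on the minus strand at chr5:55994964-55995213 and OSMR on the plus strand at chr5:38845762-38846011. Capitals mark matches, on either strand, to 6 motifs: the NF-kB kappaB consensus, C/EBP (TTGCNNAA), AP-1 (TGACTCA), the CRE half-site (ACGTCA), the core of the hypoxia response element (ACGTG or GCGTG) and STAT (TTCNNNGAA).
IL6: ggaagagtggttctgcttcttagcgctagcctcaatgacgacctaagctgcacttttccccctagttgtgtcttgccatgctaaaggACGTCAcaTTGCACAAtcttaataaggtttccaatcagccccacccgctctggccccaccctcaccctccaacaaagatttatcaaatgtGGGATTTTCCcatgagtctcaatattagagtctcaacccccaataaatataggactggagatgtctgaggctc
IL6ST: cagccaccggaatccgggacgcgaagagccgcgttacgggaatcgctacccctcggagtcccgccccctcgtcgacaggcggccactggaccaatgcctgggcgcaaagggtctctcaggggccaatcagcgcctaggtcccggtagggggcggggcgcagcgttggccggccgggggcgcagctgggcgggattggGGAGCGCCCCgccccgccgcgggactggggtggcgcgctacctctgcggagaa
OSMR: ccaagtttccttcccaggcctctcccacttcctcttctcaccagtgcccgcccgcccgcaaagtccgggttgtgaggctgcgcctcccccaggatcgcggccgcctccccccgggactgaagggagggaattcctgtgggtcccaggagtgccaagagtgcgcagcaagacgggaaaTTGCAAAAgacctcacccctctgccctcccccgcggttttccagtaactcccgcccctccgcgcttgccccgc

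The IL6 window held a kappaB match, GGGATTTTCC, from 73 to 64 bases before the start, a C/EBP match from 155 to 148 and a CRE half-site from 163 to 158. It held no match to the hypoxia core, AP-1 or STAT letters. The IL6ST window held a kappaB match from 53 to 44 bases before the start, and the OSMR window a C/EBP match from 73 to 66. Of 35116 RefSeq windows of the same length, 9.96% held the kappaB consensus, 9.05% the C/EBP letters, 4.2% AP-1, 7.1% the CRE half-site, 43.2% a hypoxia core and 6.57% the STAT letters. Of the 9 members 8 had a window, 11 windows in all because LIFR has 3 starts and SOCS3 has 2, and LIF was not matched. A hypoxia core stood in the windows of IL11, STAT3, both SOCS3 starts and 2 of the 3 LIFR starts, and not in those of IL6, IL6R, IL6ST or OSMR. KappaB matches stood only in the IL6 and IL6ST windows. Neither SOCS3 window held one, and LIF had no window to read. Both of these genes were also highest in double-knockout cells, and a link between matches and levels was not tested. C/EBP matches stood in the windows of IL6, OSMR and a LIFR start, and the CRE half-site only in that of IL6. An AP-1 match stood only in the IL11 window, and STAT matches in 2 LIFR windows. These matches describe the letters of the reference and were not tested as sites.

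LIF encodes leukaemia inhibitory factor, a cytokine that signals through LIFR and gp130. It was at 94.2 and 93.1 CPM in the parental pair, 218 and 205 in the double-knockout pair and 89.3 and 85.1 in the VHL-restored pair. Both double-knockout libraries lay above the other 4, a 2.26-fold rise over parental cells with a log2 fold change of 1.18 ± 0.06 (SE) and 1.28 ± 0.06 against VHL-restored cells. VHL-restored libraries were just under the parental ones without overlap, at -0.10 ± 0.06, which did not pass, with a 95% interval of -0.23 to 0.02.

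IL11, a cytokine with its own receptor subunit, was near the limit of detection. It had 6 and 9 counts in the parental pair, 13 and 10 in the double-knockout pair and 18 and 12 in the VHL-restored pair, or 0.202 to 0.644 CPM. None of its differences passed, and the intervals were wide. The log2 fold change over parental cells was 0.53 with a 95% interval of -0.54 to 1.61 in double-knockout cells, and 0.89 with an interval of -0.14 to 1.92 in VHL-restored cells. Any difference within these intervals is compatible with these counts.

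IL6R encodes the ligand-binding receptor of IL6. Its level was 4.79 and 5.60 CPM in parental and 5.13 and 5.05 in double-knockout libraries, which overlapped, and 2.18 and 2.32 in VHL-restored libraries, below the other 4. The difference of double-knockout from parental cells was -0.02 ± 0.14 (SE) on the log2 scale, with a 95% interval of -0.29 to 0.25. In VHL-restored cells IL6R fell by 1.19 ± 0.16, 2.29-fold.

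LIFR, the receptor subunit that binds LIF, moved in opposite directions in the 2 engineered lines. It was at 9.0 and 10.7 CPM in the parental pair, 3.18 and 3.65 in the double-knockout pair and 22.4 and 19.0 in the VHL-restored pair, with no overlap between groups. LIFR fell 2.87-fold in double-knockout cells, a log2 fold change of -1.52 ± 0.15 (SE), and rose 2.12-fold in VHL-restored cells, at 1.08 ± 0.11. Between the engineered lines it was 6.08-fold lower in double-knockout cells. In these cells the ligand LIF was thus higher while LIFR was lower than in parental cells.

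OSMR, the receptor subunit for oncostatin M, was lower in both engineered lines. It was at 165 and 169 CPM in the parental pair, 70.3 and 69.3 in the double-knockout pair and 65.0 and 60.2 in the VHL-restored pair, and both parental libraries lay above the other 4. OSMR fell 2.39-fold in double-knockout cells (log2 fold change -1.25 ± 0.06, SE) and 2.66-fold in VHL-restored cells (-1.41 ± 0.06). Between the engineered lines the difference was small, 0.16 ± 0.07 on the log2 scale, and the call depended on the setting. It was lost with DESeq2, median centring, a fit of the 4 libraries compared, and without any 1 of parental replicate 1, parental replicate 2, double-knockout replicate 1, double-knockout replicate 2 or VHL-restored replicate 2, at 0.10 to 0.17. LIFR and OSMR are neighbours on chromosome 5, on opposite strands. About 250 kb lie between their nearest RefSeq starts, with 0 protein-coding genes wholly in between. Their levels differed in direction in VHL-restored cells, where LIFR rose and OSMR fell.

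IL6ST, the gene of the shared subunit gp130, was at 121 and 131 CPM in the parental pair, 197 and 225 in the double-knockout pair and 125 and 103 in the VHL-restored pair. The double-knockout libraries were above the other 4, and parental and VHL-restored libraries overlapped. IL6ST rose 1.67-fold over parental cells, a log2 fold change of 0.74 ± 0.07 (SE). In VHL-restored cells it was at -0.14 ± 0.08, which did not pass, with a 95% interval of -0.29 to 0.01. Without VHL-restored replicate 1 the value was -0.29 and passed.

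STAT3, the factor that carries the signal to the nucleus, was at 106 and 106 CPM in the parental pair, 127 and 121.5 in the double-knockout pair and 145 and 144 in the VHL-restored pair. The groups did not overlap, and their order was parental, double knockout, VHL-restored. STAT3 rose 1.18-fold in double-knockout cells and 1.37-fold with VHL restored, log2 fold changes of 0.24 ± 0.06 and 0.45 ± 0.06 (SE), the smallest changes among the called members in both comparisons with parental cells.

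SOCS3, an inhibitor that STAT3 induces and that binds gp130 and JAK kinases, was at 10.3 and 10.7 CPM in the parental pair, 33.6 and 33.1 in the double-knockout pair and 19.6 and 18.6 in the VHL-restored pair. Again the groups did not overlap, but the order was parental, VHL-restored, double knockout. SOCS3 rose 3.17-fold in double-knockout cells and 1.81-fold with VHL restored, at 1.67 ± 0.09 and 0.86 ± 0.10 (SE) on the log2 scale. It was higher in double-knockout than in VHL-restored cells by 0.81 ± 0.08. Replicates did not overlap in 7 of the 9 members in each comparison with parental cells and in 8 of 9 between the engineered lines, beside 71.6%, 72.2% and 72.6% of all genes.

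**Figure D2:**
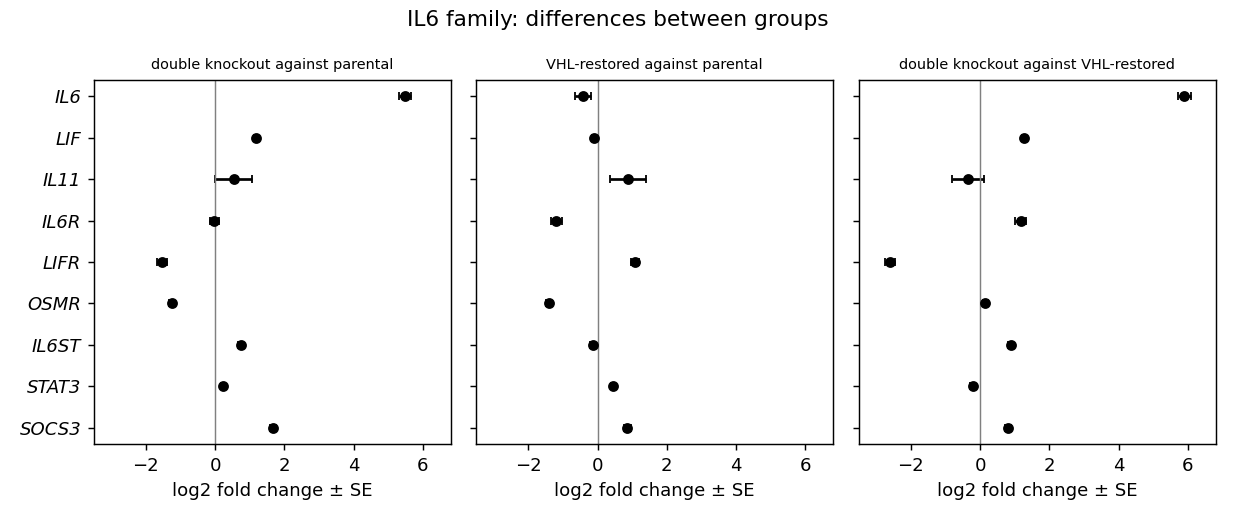
Log2 fold change of each member (point) with its SE (bar) in the 3 comparisons, from the edgeR fit. IL6 reaches 5.49 and 5.90 on the log2 scale where double-knockout cells are compared, LIFR lies on opposite sides of 0 in the 2 comparisons with parental cells, and IL11 has the widest errors.

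The genes nearest in pattern to the ligands were found by the distance between their pairs of log2 fold changes against parental cells, among genes with a mean of at least 1 CPM, as a description over 3 groups of 2 libraries. For IL6, with 12686 genes searched, they were PPP1R27, AMZ1, RPLP0P2, SCG5 and SLAMF8, at distances of 0.68 to 1.31. PPP1R27, AMZ1 and RPLP0P2 were under 0.22 CPM in parental cells and at 0.0894, 0.125 and 0.0893 CPM with VHL restored. They reached a mean of 1 CPM only through the double-knockout libraries. RPLP0P2 is a pseudogene whose reads may be shared with its parent gene. SCG5, a chaperone of secretory granules, went from 2.19 to 40.2 CPM and was at 1.73 CPM in VHL-restored cells. SLAMF8, a cell surface receptor of the SLAM family, went from 0.893 to 51.2 CPM and was at 1.70 CPM. IL6 was selected on its large difference, so its distances cannot be compared with those of LIF. The 5 neighbours of LIF were TUBB2A, CEP135, SCO2, LIMD2 and LOC100505812, within 0.05. For IL11 they were GSG2, SIK3, IFIH1, GHRLOS and PLGRKT, within 0.04, but the errors of IL11 itself are larger than that distance.

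Beyond the 9 members, 87 genes of the pathway from 8 lists were tested. In double-knockout against parental cells 33 rose, 23 fell and 31 did not pass, and in VHL-restored cells 40 rose, 21 fell and 26 did not pass. Between the engineered lines 28 were higher and 29 lower in double-knockout cells. The shares of all genes called, given above, are the background to these counts and to those of each list. The median log2 fold changes were 0.09, 0.36 and -0.09 (0.15, 0.30 and -0.03 with genes at no count in a group set to a bound of 3 counts over the group), beside medians of 0.01, -0.01 and 0.02 for all genes with a mean of at least 1 CPM.

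**Figure D3:**
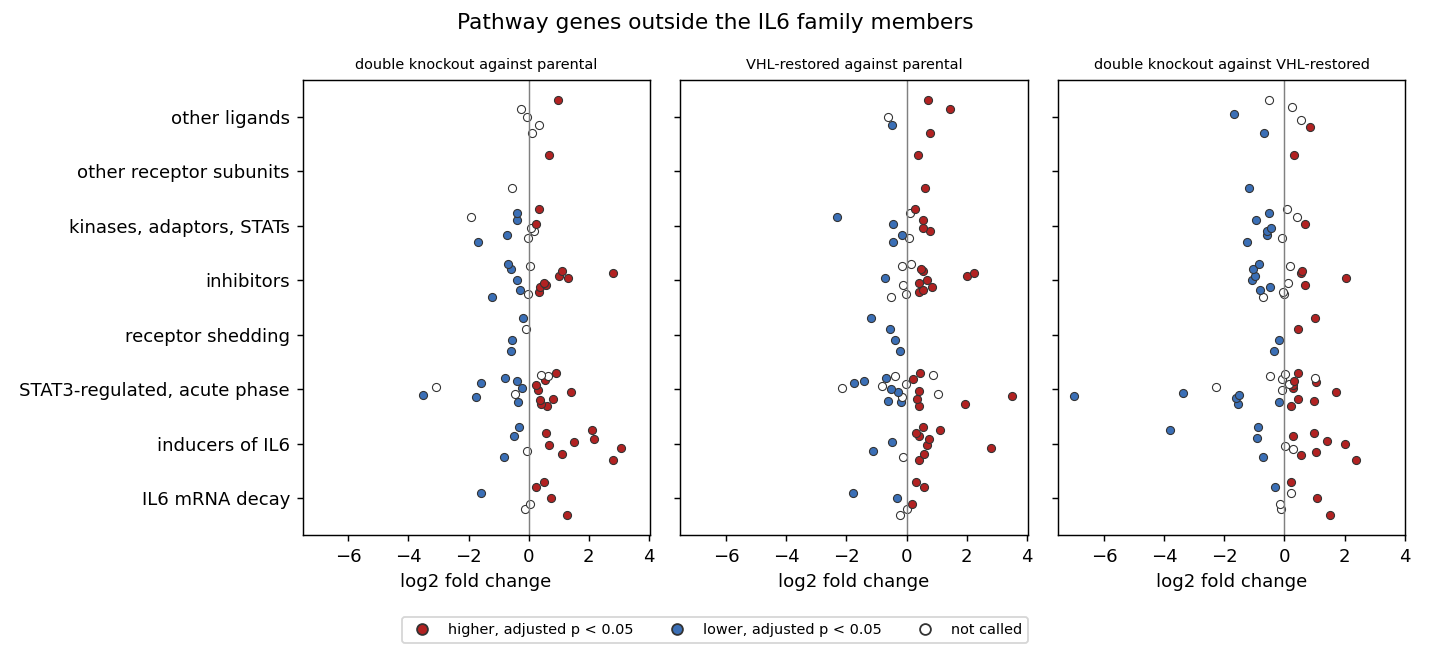
Log2 fold change of pathway genes outside the 9 members, a row per list, in the 3 comparisons. Filled points passed an adjusted p of 0.05 (red higher, blue lower) and open points did not. Genes whose error could not be estimated, mostly for lack of counts in a group, are left out. The 4 genes of receptor shedding lie below 0 in both comparisons with parental cells.

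Of 6 other ligands or ligand partners, 1 rose in double-knockout cells, and 3 rose and 1 fell in VHL-restored cells. EBI3, a subunit of interleukin-27, rose from 4.93 ± 0.364 CPM to 9.71 ± 0.771 in double-knockout cells (log2 fold change 0.97 ± 0.13, adjusted p = 9.74e-08, edgeR) and to 8.10 in VHL-restored cells. CTF1, encoding cardiotrophin, was at 2.26 and 2.47 CPM in the parental pair, 2.09 and 1.86 in the double-knockout pair and 6.87 and 5.90 in the VHL-restored pair, a rise of 1.44 ± 0.16 in the last (adjusted p = 2.08e-09, edgeR). CLCF1, a ligand of the ciliary neurotrophic factor receptor, rose in VHL-restored cells by 0.79 ± 0.08 (adjusted p = 1.36e-09, edgeR). CNTF, ciliary neurotrophic factor, fell there by 0.50 ± 0.21 (adjusted p = 0.0441, edgeR), a call lost with DESeq2 (adjusted p = 0.263), with median centring, in the fit of the 4 libraries compared and without any 1 library other than parental replicate 2 or VHL-restored replicate 2, up to an adjusted p of 0.465 without parental replicate 1. OSM, the ligand of OSMR, had 0 to 2 counts per library. IL11RA, the receptor of IL11, was between 1.28 and 3.76 CPM. Its rise in VHL-restored cells, 0.62 ± 0.21 (adjusted p = 0.0130, edgeR), was lost with DESeq2 (adjusted p = 0.151), in the fit of the 4 libraries compared (adjusted p = 0.0541) and without any 1 library other than VHL-restored replicate 2, up to an adjusted p of 0.513 without VHL-restored replicate 1. In double-knockout cells IL11RA was at -0.55 ± 0.25 against parental cells (adjusted p = 0.0645, edgeR), which passed in 5 of the 12 alternative settings (adjusted p = 0.0309 to 0.0484), and it was lower than in VHL-restored cells by -1.16 ± 0.23 (adjusted p = 4.28e-05, edgeR). IL27RA, the interleukin-27 receptor, rose in double-knockout cells by 0.69 ± 0.14 (adjusted p = 6.01e-05, edgeR). CNTFR and IL31RA had at most 1 count in any library. Of these 4 receptor subunits 1 rose in double-knockout cells and 2 with VHL restored, and the latter count was 0 with DESeq2 or without either parental library.

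Of 10 kinases, adaptors and other STATs, 2 rose and 4 fell in double-knockout cells, and 4 rose and 4 fell in VHL-restored cells. The last count, of JAK1, GAB1, SHC1 and STAT5A, depended on the setting. JAK1 lost its call with median centring (adjusted p = 0.157, edgeR), and GAB1 with DESeq2 (adjusted p = 0.0656). Without parental replicate 1 the calls of JAK1, GAB1 and STAT5A were lost, at -0.13, -0.41 and -2.20 on the log2 scale. The JAK1 call was also lost without parental replicate 2 or VHL-restored replicate 2, at -0.14 and -0.10. JAK1, the main kinase bound to gp130, was at 854 and 847 CPM in the parental pair, 504 and 517 in the double-knockout pair and 793 and 750 in the VHL-restored pair. JAK1 fell by 0.74 ± 0.05 in double-knockout cells (adjusted p = 2.49e-13, edgeR), while IL6, LIF, IL6ST and SOCS3 were higher there. GAB1, an adaptor of the receptor complex, fell from 7.66 ± 0.360 to 2.35 ± 0.251 CPM in the same cells (-1.70 ± 0.15, adjusted p = 1.51e-11, edgeR). JAK2 rose in VHL-restored cells by 0.77 ± 0.13 and PTPN11, a phosphatase that links gp130 to ERK signalling, by 0.53 ± 0.06 (adjusted p = 7.15e-06 and 1.87e-09, edgeR). STAT5B fell in double-knockout cells by 0.38 ± 0.08 (adjusted p = 0.000165, edgeR). SHC1, an adaptor, was higher in double-knockout than in VHL-restored cells by 0.69 ± 0.06 (adjusted p = 7.14e-12, edgeR). STAT5A rested on 15 counts in parental and 3 in VHL-restored cells, 5.34 times as many per unit of depth (counting interval 1.51 to 28.8), and its call was lost with DESeq2 (adjusted p = 0.168) or without any 1 parental or VHL-restored library.

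Of 15 other inhibitors, 8 rose and 5 fell in double-knockout cells, and 9 rose and 1 fell in VHL-restored cells. SOCS2, a relative of SOCS3 that acts on growth hormone signalling, was at 1.55 and 1.98 CPM in the parental pair, 11.9 and 12.4 in the double-knockout pair and 7.83 and 8.54 in the VHL-restored pair, rising by 2.80 ± 0.17 and 2.23 ± 0.17 (adjusted p = 1e-16 and 1.3e-13, edgeR). Both engineered lines were above the parental libraries, in the same order as for SOCS3. PTPRE, a receptor-type tyrosine phosphatase, rose by 1.32 ± 0.08 in double-knockout cells and fell by 0.72 ± 0.09 with VHL restored (adjusted p = 1.51e-15 and 3.54e-08, edgeR). SOCS4 rose by 1.12 ± 0.08 and CISH, an inhibitor induced by STAT5, fell by 1.23 ± 0.34 in double-knockout cells (adjusted p = 5e-13 and 0.00174, edgeR). SOCS1, an inhibitor of JAK kinases, rose by 2.00 ± 0.35 in VHL-restored cells, to 1.70 CPM against 0.418 (adjusted p = 1.91e-06, edgeR), and PIAS4, a SUMO ligase of the PIAS family, by 0.85 ± 0.08 (adjusted p = 1.6e-10, edgeR). SOCS5 and PTPN6, the phosphatase SHP-1, were lower in double-knockout than in VHL-restored cells by -1.05 ± 0.08 and -1.07 ± 0.08 on the log2 scale (adjusted p = 8.39e-13 and 6.09e-13, edgeR).

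The proteases that shed IL6R and other surface proteins were lower. ADAM10 was at 258 and 264 CPM in the parental pair, 170 and 179 in the double-knockout pair and 234 and 214 in the VHL-restored pair. ADAM17 was at 79.9 and 77.0, 52.9 and 53.9, and 62.0 and 58.4 CPM in the same order. In double-knockout cells ADAM10 fell by 0.58 ± 0.06 and ADAM17 by 0.56 ± 0.07 (adjusted p = 7.3e-10 and 2.92e-08, edgeR). RHBDF2, a cofactor that brings ADAM17 to the cell surface, fell by 1.18 ± 0.07 in VHL-restored cells (adjusted p = 1.82e-15, edgeR), where RHBDF1 fell by 0.55 ± 0.08 (adjusted p = 3.21e-07, edgeR). Of the 4 genes 3 fell in double-knockout cells and 4 with VHL restored. The fall of RHBDF2 in double-knockout cells, 0.18 ± 0.07 (adjusted p = 0.0261, edgeR), did not hold without parental replicate 1, without parental replicate 2 or when double-knockout replicate 2 was left out (adjusted p = 0.251, 0.114 and 0.241). That of ADAM10 with VHL restored did not hold without parental replicate 1 or 2 (adjusted p = 0.0530 and 0.0812).

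STAT3-regulated and acute phase genes were split. Of 27 tested, 9 rose, 7 fell and 11 did not pass in double-knockout cells. The median log2 fold change was 0.25, also with bounds, and the mean -0.08. In VHL-restored cells 8 rose, 7 fell and 12 did not pass, with a median of 0.22 (-0.02 with bounds) and a mean of 0.70. Both means include genes with few or no counts, whose fitted values depend on the prior count. ICAM1, an adhesion molecule that NF-kB also induces, was at 124 and 119 CPM in the parental pair, 339 and 311 in the double-knockout pair and 97.2 and 103 in the VHL-restored pair, a rise of 1.42 ± 0.06 in double-knockout cells (adjusted p = 9.75e-19, edgeR). CEBPD, a transcription factor induced by IL6 in many cells, was at 31.9 and 28.9, 8.62 and 9.56, and 27.7 and 27.3 CPM, a fall of 1.75 ± 0.10 in double-knockout cells (adjusted p = 2.09e-16, edgeR). BCL3, a nuclear partner of NF-kB, rose by 1.95 ± 0.11 in VHL-restored cells (adjusted p = 1.44e-16, edgeR). MUC1, a membrane mucin, fell in both engineered lines, with log2 fold changes of -1.57 ± 0.11 and -1.74 ± 0.12 (adjusted p = 1.06e-13 and 1.71e-14, edgeR). FGB, the fibrinogen beta chain of the liver's acute phase response, rose in VHL-restored cells with a mean of 5.24 CPM against 0.462 (3.50 ± 0.33, adjusted p = 2.49e-13, edgeR). In double-knockout cells it had 2 counts against 24 in parental cells, 12.6 times fewer per unit of depth (counting interval 3.13 to 110). HP, haptoglobin, had no count in parental and 13 in VHL-restored cells, at least 4.06-fold higher, a call that did not hold without parental replicate 1 or 2, or without VHL-restored replicate 2. SAA1, SAA2, LRG1, LBP, SERPINA3, FGA, FGG, HAMP and A2M were below 0.35 CPM in every library, CRP had no count, and none of these passed in any comparison.

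Of 14 inducers of IL6 and factors that act on its promoter, 8 rose and 3 fell in double-knockout cells, and 11 rose and 2 fell in VHL-restored cells, in which IL6 itself did not pass. The 3 that fell in double-knockout cells were CREB1 (47.8 to 27.1 CPM), NFKBIZ (214 to 154 CPM) and TNFRSF1A (145 to 115 CPM). Among all genes with a mean of at least 1 CPM the share called was 71.7% and 71.8%, so a high count of calls in itself is not particular to this list. Of all genes tested, 26.6% and 26.5% were higher. The list, which also holds genes under 1 CPM, was not tested as a set. NFKBIA, the NF-kB inhibitor that NF-kB induces, was at 27.2 and 26.0 CPM in the parental pair, 119 and 120 in the double-knockout pair and 43.4 and 45.8 in the VHL-restored pair, rising by 2.17 ± 0.07 and 0.75 ± 0.08 (adjusted p = 8.04e-22 and 5.16e-10, edgeR). RELB, an NF-kB subunit, was at 10.6 and 10.0, 46.7 and 42.0, and 22.5 and 22.5 CPM, rising by 2.11 ± 0.09 and 1.12 ± 0.10 (adjusted p = 4.76e-19 and 1.13e-11, edgeR). NFKB2, the partner of RELB, was higher in double-knockout than in VHL-restored cells by 2.01 ± 0.07 (adjusted p = 9.02e-21, edgeR), at 145 and 129 against 34.0 and 33.9 CPM. ATF3, a stress-induced factor of the CREB family, was at 6.07 and 4.98, 38.2 and 40.4, and 7.51 and 7.50 CPM, a rise of 2.81 ± 0.11 in double-knockout cells (adjusted p = 8.31e-21, edgeR). TNF had no count in parental, 4 in double-knockout cells and 60 with VHL restored, at least 18.7-fold higher in the last than in parental cells. IL1B had no count in parental or double-knockout cells and 11 in VHL-restored cells, a call lost with DESeq2 (adjusted p = 0.481) and without parental replicate 1 or 2, or VHL-restored replicate 1. IL1RN, the antagonist of the interleukin-1 receptor, rose from a parental mean of 0.112 CPM by 3.07 ± 0.65 in double-knockout cells and 2.80 ± 0.66 with VHL restored (adjusted p = 4.06e-06 and 3.21e-05, edgeR). IL1R1, the interleukin-1 receptor, fell in VHL-restored cells by 1.13 ± 0.33 (adjusted p = 0.00295, edgeR), a call lost with DESeq2 (adjusted p = 0.0590) and without parental replicate 1 or VHL-restored replicate 1 (adjusted p = 0.0817 and 0.0664).

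**Figure D4:**
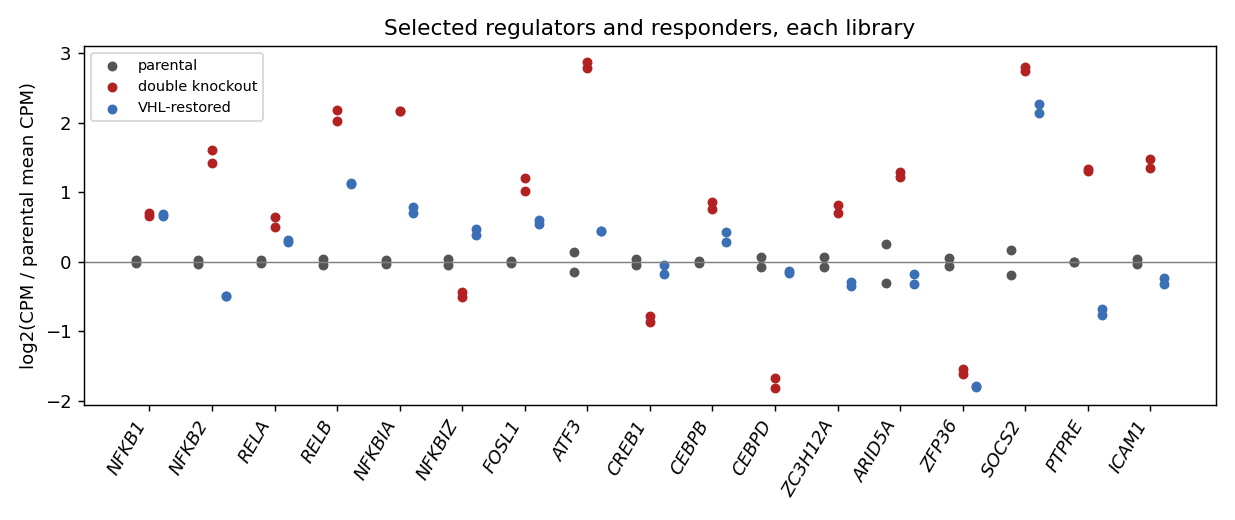
Level of 17 regulators and responders in each library as log2 of CPM over the parental mean, with parental libraries in grey, double-knockout in red and VHL-restored in blue. The genes were chosen for display after their values were seen. NFKBIA, RELB and ATF3 are highest and CREB1, NFKBIZ and CEBPD lowest in the double-knockout libraries, and ZFP36 is low in both engineered lines.

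Genes that act on the decay of IL6 messenger RNA rose in 4 of 7 cases and fell in 1 in double-knockout cells, and rose in 3 and fell in 2 in VHL-restored cells. With DESeq2 or without parental replicate 1, 3 of the 7 were called in VHL-restored cells in place of 5. ZFP36, a protein that binds AU-rich elements and promotes decay of cytokine messages, was at 24.2 and 22.2 CPM in the parental pair, 7.93 and 7.57 in the double-knockout pair and 6.72 and 6.65 in the VHL-restored pair, falling by 1.58 ± 0.10 and 1.80 ± 0.11 (adjusted p = 9.8e-15 and 8.44e-16, edgeR). ARID5A, which stabilises IL6 messenger RNA, was at 6.19 ± 0.198 CPM in double-knockout cells against 2.59 ± 0.706 in parental cells, a rise of 1.29 ± 0.17 (adjusted p = 3.94e-08, edgeR). With VHL restored it was at 2.18 CPM. ZC3H12A, the ribonuclease regnase-1 that degrades IL6 messenger RNA, rose by 0.76 ± 0.10 in double-knockout cells (adjusted p = 6.69e-08, edgeR), and ZFP36L1, a relative of ZFP36, by 0.58 ± 0.05 in VHL-restored cells (adjusted p = 1.24e-10, edgeR). ZFP36L2, another relative, rose by 0.52 ± 0.08 and 0.32 ± 0.08 (adjusted p = 2.3e-06 and 0.00159, edgeR). Message stability was not measured.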

How the data were processed

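Poly(A) RNA of 6 RCC10 libraries was sequenced, and the authors deposited 1 table of counts per gene symbol. The table is named as normalized, yet every value is a whole number and column totals differ, so the values were taken as raw counts. The submitters' processing notes list HISAT2 2.2.1 and featureCounts 2.0.8, after FastQC 0.74 and Trimmomatic 0.39. The sources used here do not give strandedness, the handling of shared reads, or which of hg38 and hg19, both named, the counts use.

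All genes with a count in any library entered edgeR 4.0.16 in R 4.3.3 (TMM factors, quasi-likelihood test, all 6 libraries, 3 group means, prior count 0.125) with Benjamini-Hochberg adjustment over all 18273 genes at 0.05. The SE is the Wald error of that fit, from which normal 95% intervals were taken. The fit was also run on simulated counts, with a common dispersion for all genes and changes planted only in genes with a mean of at least 1 CPM. That run does not cover gene-specific spread or genes with few counts. Counting intervals and bounds (floor of 3 counts, 0.101 to 0.132 CPM in a library) cover counting error only. DESeq2 1.42.0 and other alternatives are described in the closing section. Libraries of a group differed beyond sampling noise (chi-square over its degrees of freedom, 2.65 to 6.89).

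The members, the lists and the tests were chosen with earlier results of these data known. Named are the 9 members, the 3 targeted genes, up to 4 genes per list and comparison with the largest change among those called without overlap (2 with the highest level where none was called), and the 5 genes nearest to each ligand. A few other listed genes are named beside these, such as those of the inducer list that fell in double-knockout cells. IL27, IL31, IL1A, CDH5 and LUM, also listed, were not analysed here. The 250-base windows come from RefSeq (GRCh38.p14). A gene that the rule names is counted in its list but not reported here.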

Additional observations from a re-analysis of the deposited data

Results flagged for a closer look

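Several genes were called in opposite directions in the 2 comparisons with parental cells and also differed between the engineered lines. Among the members this was LIFR, with log2 fold changes of -1.52 in double-knockout cells, 1.08 with VHL restored and -2.60 between these lines. Among the other pathway genes the log2 differences of double-knockout from VHL-restored cells were 0.69 for SHC1, -1.05 for SOCS5, -1.07 for PTPN6, 2.04 for PTPRE, 1.70 for ICAM1, -7.00 for FGB, 2.01 for NFKB2 and 1.08 for ZC3H12A. All of these passed the test between the engineered lines, in a fit whose scaling and dispersion also draw on the parental libraries. The FGB value rests on 2 counts in double-knockout cells and 293 with VHL restored, 144 times more per unit of depth (counting interval 39.5 to 1195), and its fitted value depends on the prior count. The calls against parental cells of SHC1 (double knockout, without parental replicate 2), ICAM1 (VHL-restored, without parental replicate 1) and ZC3H12A (VHL-restored, with DESeq2 and without parental replicate 1 or VHL-restored replicate 2) were lost, at adjusted p of 0.0824, 0.0574, and 0.0663, 0.161 and 0.0576, while their direction held.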

How the results depend on the processing

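Each result was recomputed under 12 settings: 6 that leave out a library, RLE size factors, median centring, a filter on low counts (filterByExpr), DESeq2, a fit of the 4 libraries compared, and the replicate number as a block. No called direction reversed among the 9 members and 45 pathway genes taken by the naming rule, where 1826 of 1934 values kept their side of the threshold, 98 lost a call and 10 gained one. The IL6 log2 fold change was between 5.35 and 5.68 in double-knockout against parental cells and between 5.66 and 6.19 against VHL-restored cells. The genes called numbered 9888, 9898 and 10225 in the 3 comparisons in the order given above. With DESeq2 they numbered 8704, 8515 and 8935, and leaving out a library gave 7974 to 10134, 7891 to 9671 and 9019 to 9679. Pathway genes called ranged from 50 to 57, 46 to 58 and 51 to 55 without a library. Same-numbered libraries did not deviate together in every pair (correlations of 0.18, -0.01 and 0.02 across 12687 genes), so the numbers were not taken to pair the samples. With the replicate block 10112, 10148 and 10458 genes were called, and IL6ST passed in VHL-restored against parental cells at -0.14. With 2 libraries a group, depth limits IL11 and the other genes with few counts.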
